A study of Mus musculus with 12 samples.

Results

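Actb, Anxa8 and Cav2 encode cytoplasmic beta-actin, a membrane-binding annexin and a caveolin, and each was measured by 1 Agilent catalogue probe (A_51_P173760, A_51_P207591 and A_51_P279552) printed in 10 spots on every array. They were taken by probe name as 3 of the 45 catalogue probes that carry 1 gene symbol through a RefSeq accession, among 60823 transcript probes in all. The genes were chosen from earlier results of the knockdown comparison in these data (IP RNA, total RNA and IP-to-Sup ratio), so their knockdown differences are a description and carry no test.

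The cells were MPC5, a conditionally immortalised mouse podocyte line, taken from the filtering epithelial cell of the kidney glomerulus. Control cells received a non-targeting siRNA (siNC) and knockdown cells an siRNA against METTL3, and both groups spent 24 h in 30 mmol/L glucose, so no group in normal glucose enters. Each of 3 control and 3 knockdown arrays carried immunoprecipitated RNA (IP) in the red dye Cy5 and the supernatant left over (Sup) in the green dye Cy3. The labels call the replicates biological and do not say more of how cultures were kept apart, so every p-value measures only the spread between these samples. No label states which antibody was used. Because METTL3 carries the catalytic site of the enzyme complex that writes m6A, IP RNA is read here as RNA enriched for that mark.

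Beta-actin polymerises into the filaments that shape the podocyte foot process, and its mRNA is among the most abundant in cultured cells. Annexins bind acidic phospholipids when calcium rises, and ANXA8 is found on late endosomes, where it contributes to their organisation. CAV2 is a partner of CAV1 in the coat of caveolae, the flask-shaped pits of the plasma membrane that are anchored to actin. m6A is a methyl mark on adenosine in mRNA, read by proteins that act on splicing, translation and decay.

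No other listed gene of these pathways had a named probe. Gene symbols were looked up for the 50 catalogue probes only, so other transcript probes on the array may cover these genes. Of 42 listed actins and actin partners, 15 annexins and S100 partners and 9 caveola genes, Actb, Anxa8 and Cav2 were the only named members, and no listed gene of the SRF and MRTF pathway (0 of 10) or the m6A machinery (0 of 18) had a named probe. The knockdown of Mettl3 itself was therefore not analysed here. The same held for the markers of podocytes (0 of 12), mesangial cells and fibroblasts (0 of 6), endothelium (0 of 4), tubular epithelium (0 of 5) and immune cells (0 of 4), so the labelled cell type was not checked. Across arrays, 35% to 50.2% of transcript probes were well above background in Cy5 and 73.6% to 80.3% in Cy3. No spot was saturated. Outlier marks of the scanner software fell on 1.65% to 2.65% of spots on control arrays and 0.819% to 0.9% on knockdown arrays, mostly on bright ones. Control array 2 was scanned apart from the other 5. The barcode field of the scanner header began with 2 for control arrays 2 and 3 and with 1 for all other arrays. This character is read here as the second or first position row, which is an inference.

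Promoters are shown for Anxa8 and Cav2 only, because no promoter entry for Actb was available. Both were matched by symbol to RefSeq promoter sequences of the mouse assembly GRCm38.p6. Each line gives the 250 bases before the start of the gene, Anxa8 from chr14:34085729-34085978 on the plus strand and Cav2 from chr6:17280935-17281184 on the plus strand. Capitals mark matches on either strand to 5 motifs. The TATA box was searched as TATAAA. The box bound by the factor NF-Y was searched as CCAAT. The box bound by Sp1 was searched as GGGCGG. The AP-1 site was searched as TGACTCA, and the CArG box bound by SRF by its usual consensus.
Anxa8: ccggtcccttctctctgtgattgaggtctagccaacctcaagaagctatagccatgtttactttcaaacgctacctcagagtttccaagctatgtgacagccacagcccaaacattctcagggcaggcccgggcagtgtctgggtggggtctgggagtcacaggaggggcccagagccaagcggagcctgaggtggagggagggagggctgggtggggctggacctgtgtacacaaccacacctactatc
Cav2: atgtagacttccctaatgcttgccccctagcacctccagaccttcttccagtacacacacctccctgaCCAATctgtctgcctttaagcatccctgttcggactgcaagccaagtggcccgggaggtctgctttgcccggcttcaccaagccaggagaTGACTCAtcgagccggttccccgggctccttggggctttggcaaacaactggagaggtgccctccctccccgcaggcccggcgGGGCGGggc
Anxa8 held none of the 5 motifs in this window. Cav2 held CCAAT 182 bases before its start, the AP-1 site 92 bases before it and the Sp1 box 9 bases before it, and none of these overlapped another. Among 32851 promoters of the same length, 33.8% held CCAAT, 32.7% the Sp1 box, 12.4% the TATA box, 4.46% the AP-1 site and 1.47% a CArG box. A match is a run of letters and not a measured binding site.

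Anxa8 had the largest difference of the 3 genes between knockdown and control, and it was carried by knockdown arrays 1 and 2. Its total RNA was 2.08-fold lower in the knockdown mean, with knockdown array 3 inside the range of the controls. Actb total RNA was 1.39-fold lower in the knockdown mean with control arrays 2 and 3 high and control array 1 level with the knockdown arrays. Cav2 total RNA was 1.1-fold lower, less than the spread between its arrays. Total RNA here is log2 of Cy5 plus Cy3 less the array's 75th percentile, and IP and Sup RNA are log2 of the one channel scaled the same way. In cultures, fewer cells that express a gene and less of its RNA per cell cannot be told apart.

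Actb is described first, as the filament protein. Its processed Cy5 signal over the 3 control arrays was 13158, 5565 and 16518, and over the 3 knockdown arrays it was 10844, 7552 and 8744, each time in the order of the replicate numbers. Its Cy3 signal was 22051, 12244 and 37945, then 28255, 14814 and 18837. Before scaling, the groups overlapped in both channels.

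After scaling, Actb IP RNA was 5.60, 5.91 and 6.08 in the controls and 5.19, 5.32 and 5.44 in the knockdowns. Every knockdown array lay below every control array, with means of 5.86 ± 0.24 and 5.32 ± 0.13 (SD, n = 3), a difference of -0.54 or 1.46-fold. Actb Sup RNA was 6.34, 7.04 and 7.27, then 6.55, 6.29 and 6.53. Control array 1 lay among the knockdown arrays in this fraction, and the difference of the means was -0.42.

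Actb total RNA was 6, 6.59 and 6.77 in the controls and 6, 5.86 and 6.07 in the knockdowns. The groups overlapped, with 6.45 ± 0.41 against 5.98 ± 0.10 (SD, n = 3) and a difference of -0.47. The high controls were the arrays of the second position row, and within the first row the difference was -0.02 in total RNA, -0.28 in IP RNA and 0.12 in Sup RNA. Both groups share only that row, with 1 control array in it, so the part of the row in the lower Actb mean was not tested. By equal replicate numbers, Actb total RNA differed by 0.01, -0.73 and -0.71.

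Anxa8, the annexin, gave processed Cy5 signals of 12066, 5986 and 11349 in the controls and 4920, 3324 and 8819 in the knockdowns. Its Cy3 signals were 8444, 5725 and 12107, then 4596, 3574 and 9158. In both channels the signal of the third knockdown array was well above that of the other two.

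Scaled Anxa8 IP RNA was 5.47, 6.01 and 5.54 in the controls and 4.05, 4.14 and 5.45 in the knockdowns. The groups did not overlap, but the third knockdown array lay only 0.02 below the lowest control. The means were 5.67 ± 0.29 and 4.55 ± 0.79 (SD, n = 3), a difference of -1.13 or 2.19-fold. Anxa8 Sup RNA was 4.95, 5.94 and 5.63, then 3.93, 4.24 and 5.49, a difference of -0.95 with 2 of 3 knockdown arrays below every control.

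Anxa8 total RNA was 5.22, 5.98 and 5.56 in the controls and 3.96, 4.17 and 5.45 in the knockdowns. Knockdown arrays 1 and 2 lay below every control and array 3 between the controls, with means of 5.59 ± 0.38 and 4.53 ± 0.81 (SD, n = 3). The difference was -1.06, where the median over all tested probes was -0.06. By equal replicate numbers Anxa8 was lower in 3 of 3 pairs, by -1.25, -1.82 and -0.11 in total RNA and by -1.02, -1.7 and -0.13 in Sup RNA. Without knockdown array 3 the difference in total RNA was -1.52, and without knockdown array 1 it was -0.78.

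The title codes divide the knockdown arrays as Anxa8 does, but not the controls. Controls 1 and 2 and knockdowns 1 and 2 have codes that begin with HG, while control 3 is coded N2-1 and knockdown 3 S2-2, and the labels do not explain the codes. In total RNA, Anxa8 in control 3 (5.56) lay between the HG-coded controls (5.22 and 5.98), while knockdown 3 (5.45) lay above the HG-coded knockdowns (3.96 and 4.17). Over the HG-coded arrays Anxa8 total RNA differed by -1.54. The codes of knockdowns 1 and 2, HG-m3-1 and HG-m3-1-2, share a stem. Over probes, the spread of the differences in total RNA between these arrays (scaled median absolute deviation) was 0.38, within the 0.30 to 0.53 of all pairs of arrays. Within the first position row the Anxa8 difference in total RNA was -0.69.

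Cav2, the caveolin, gave processed Cy5 signals of 468, 105 and 428 in the controls and 360, 203 and 319 in the knockdowns. Its Cy3 signals were 880, 340 and 1207, then 1014, 653 and 859. All of these were well above background in both channels. Before dye normalization the background-subtracted Cy5 signal of Cav2 was only 26.6 to 51.6 over the arrays, where that of Actb was 1060 to 2850.

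Scaled Cav2 IP RNA was 0.79, 0.18 and 0.81 in the controls and 0.27, 0.11 and 0.67 in the knockdowns. The groups overlapped, with means of 0.59 ± 0.35 and 0.35 ± 0.29 (SD, n = 3) and a difference of -0.24. Cav2 Sup RNA was 1.69, 1.87 and 2.30, then 1.75, 1.79 and 2.08. No knockdown array was below all controls in Sup RNA, and the means differed by -0.08.

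Cav2 total RNA was 1.29, 1.27 and 1.71 in the controls and 1.17, 1.15 and 1.52 in the knockdowns. The third array of each group was the highest, and by equal replicate numbers the differences were -0.12, -0.11 and -0.20. The means were 1.42 ± 0.25 and 1.28 ± 0.20 (SD, n = 3), a difference of -0.14 that was smaller than the pooled SD of 0.23. The sign turned with the scaling, to 0.24 on Gapdh and Pgk1 and to 0.055 on the spike-in probes.

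**Figure D1:**
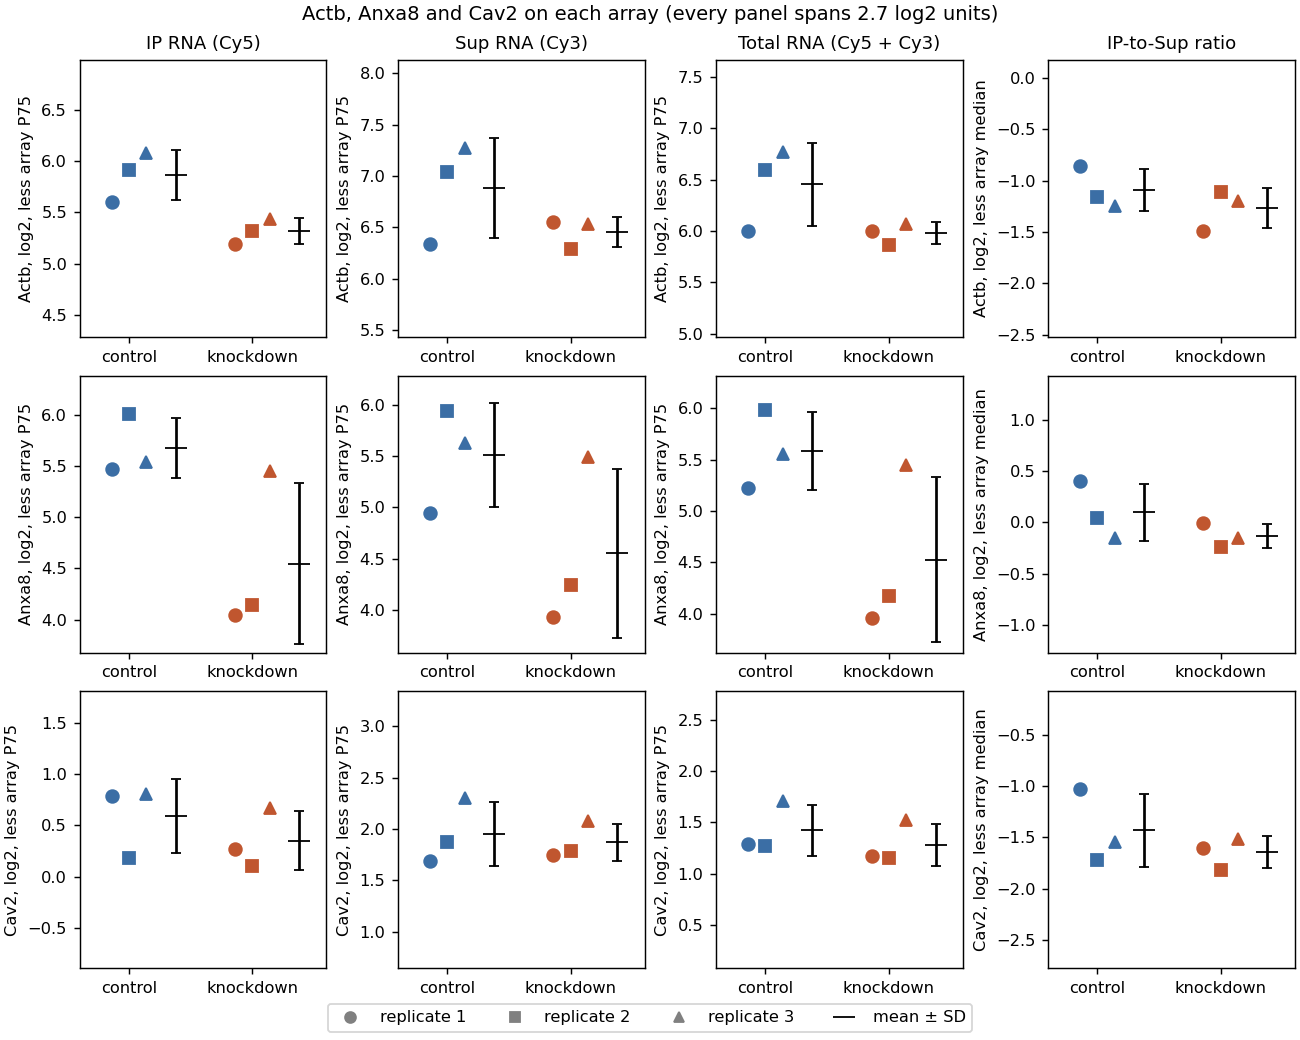
IP RNA, Sup RNA, total RNA (log2 less the array's 75th percentile) and IP-to-Sup ratio (log2 less the array median) of Actb, Anxa8 and Cav2 on each array, with control in blue, knockdown in orange, a marker for each replicate and bars for mean ± SD (n = 3). In IP, Sup and total RNA, Anxa8 on knockdown arrays 1 and 2 lies far below the controls and on array 3 beside them, while control array 1 of Actb lies level with the knockdown arrays in total RNA.

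Over all probes, limma's moderated test with Benjamini-Hochberg adjustment called none at an adjusted p of 0.05 in any of the 4 measures. At an unadjusted p under 0.05 there were 975 of 27835 probes (3.5%) in IP RNA, 872 of 48283 (1.81%) in Sup RNA, 1457 of 48349 (3.01%) in total RNA and 834 of 27782 (3%) in the IP-to-Sup ratio. These fits did not pair the arrays. With equal replicate numbers as a block the unadjusted counts were 1635, 3352, 3220 and 908, and the adjusted calls stayed at 0. Groups that did not overlap, with the knockdown lower, were seen for 2 of the 3 genes in IP RNA, beside 5.16% of all probes measured on every array. In total RNA this was seen for 0 of 3, beside 5.06%, in Sup RNA for 0 of 3, beside 3.71%, and in the ratio for 0 of 3, beside 4.15%. The knockdown was above every control in 0 of 3 genes in each measure, beside 4.81% of probes in IP, 3.21% in total and 1.51% in Sup RNA and 3.61% in the ratio. Since the genes were chosen with these differences in view, nothing is read from their counts.

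The IP-to-Sup ratio is log2 of Cy5 over Cy3, centred on the array's median over tested probes, so that 0 is the ratio of the median probe. The Actb ratio was -0.86, -1.16 and -1.25 in the controls and -1.49, -1.11 and -1.20 in the knockdowns. The Anxa8 ratio was 0.40, 0.04 and -0.15, then -0.01, -0.24 and -0.15. The Cav2 ratio was -1.03, -1.72 and -1.55, then -1.60, -1.82 and -1.52. In each gene control array 1 had the highest ratio of all 6 arrays, and the groups overlapped.

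The differences in ratio were -0.18 for Actb, -0.23 for Anxa8 and -0.22 for Cav2, with pooled SDs of 0.20, 0.21 and 0.28. Without control array 1 they were -0.061, -0.082 and -0.018. Before the scanner software's dye normalization the differences were -0.59 for Actb, -0.75 for Anxa8 and -0.23 for Cav2, against the values above after it.

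The mean of the ratio over both groups does not use the knockdown contrast and was tested against the array median. Cav2 RNA was low in the IP fraction, with a ratio of -1.54 (SE 0.11, 95% interval -1.80 to -1.28, limma adjusted p = 2.52e-05), or 2.91-fold below the median probe. Actb was also low, at -1.18 (SE 0.10, 95% interval -1.41 to -0.95, limma adjusted p = 4.26e-05), or 2.27-fold below it. Both were below the median on 6 of 6 arrays. Anxa8 did not pass, at -0.02 (95% interval -0.25 to 0.21, limma adjusted p = 0.879).

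This made 2 of 3 genes called below the array median, where 30.4% of the 27782 tested probes were called below it and 58.1% on either side. Of all tested probes, 3.98% had a lower average ratio than Cav2, 8.28% a lower one than Actb and 49.5% a lower one than Anxa8. The ratio was tested only for probes well above background in both Cy5 and Cy3, where 48283 probes were tested in Sup RNA. Probes seen in Sup but dim in IP are thus absent from the array median and from these shares. Dyes were never swapped (0 swapped arrays), so a probe's own dye bias stays in its average ratio and cannot be told apart from its share in the IP. Over 13 other settings the Cav2 ratio ran from -1.76 to -1 (adjusted p 5.79e-07 to 0.000325) and that of Actb from -1.40 to -0.97 (adjusted p 1.57e-06 to 0.000454). That of Anxa8 ran from -0.24 to 0.041 (adjusted p 0.129 to 0.988). These settings did not include the scaling on Gapdh and Pgk1 probes, the signal before dye normalization or the authors' deposited values. Differences among the 3 genes in their ratios were not tested.

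**Figure D2:**
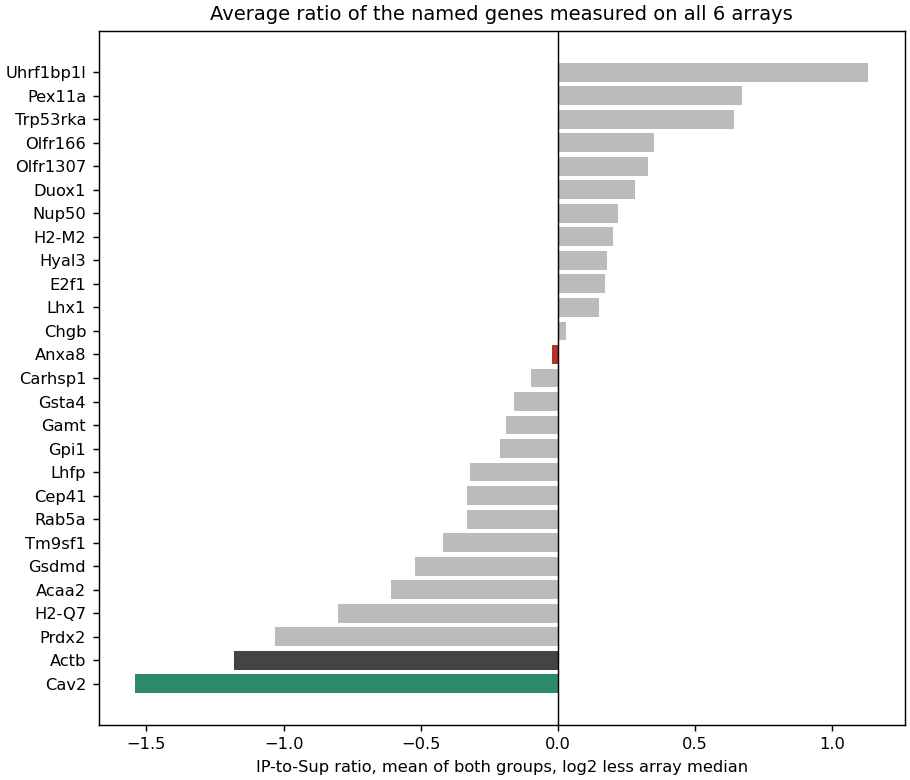
Mean IP-to-Sup ratio over both groups (log2 less the array median) of the 27 named genes well above background in Cy5 and in Cy3 on each of the 6 arrays, as bars from 0. Cav2 at -1.54 and Actb at -1.18 are the lowest bars, Prdx2 at -1.03 is next, and Anxa8 at -0.02 is 15th from the lowest.

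Among those 27 named genes, the ratios ran from -1.54 for Cav2 to 1.13 for Uhrf1bp1l. The 4 mouse control probes for the glycolytic enzymes Gapdh and Pgk1 had control means from -1.69 to -0.88 on the same scale, so all 4 means lay below the median probe, as those of Actb and Cav2 did. With these probes as the reference in place of the median probe, the Actb ratio was 0.04 in the control mean and -0.05 in the knockdown mean. That of Cav2 was then -0.29 and -0.43, and that of Anxa8 1.23 and 1.08.

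The mean of those 4 Gapdh and Pgk1 probes was itself lower in the knockdown. In total RNA it was 5.33, 5.99 and 5.32 on the control arrays and 5.16, 5.27 and 5.06 on the knockdown arrays. The group means were 5.54 ± 0.38 and 5.16 ± 0.10 (SD, n = 3), a difference of -0.38. Control array 2, which was scanned apart, was far the highest. Every knockdown array lay below every control, as was seen for 5.06% of all probes in total RNA. Measured against the mean of the 4 probes on the same array, Actb differed by -0.09, Anxa8 by -0.68 and Cav2 by 0.24. Each of the 3 genes then overlapped between groups, and Anxa8 again had 2 of 3 knockdown arrays below every control. Scaling on these probes moved the median difference of all tested probes from -0.06 to 0.34 in total RNA. The 4 probes differed widely in level, with control means in total RNA of 7.95 and 1.71 for the Pgk1 probes. Each of the 4 was lower in the knockdown mean.

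**Figure D3:**
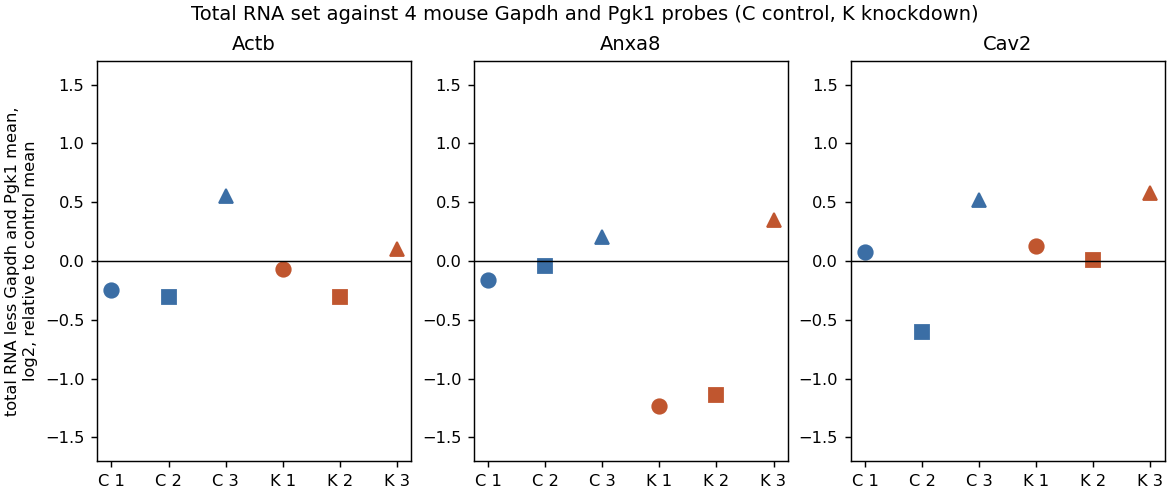
Total RNA of each gene less the mean of the 4 Gapdh and Pgk1 probes on the same array, in log2 relative to the control mean, for control (C, blue) and knockdown (K, orange) arrays 1 to 3. Anxa8 lies far below the controls on K 1 and K 2 and above them on K 3. The Actb and Cav2 knockdown points overlap the controls, with Actb on K 2 level with its lowest control and Cav2 on K 3 just above its highest.

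Differences between genes within an array do not change with the scaling constant of the array, but the background and dye processing of the signals stays in them. Anxa8 less Actb in total RNA, relative to its control mean, was 0.09, 0.26 and -0.35 on the control arrays and -1.17, -0.83 and 0.25 on the knockdown arrays. Anxa8 less Cav2 was -0.24, 0.55 and -0.32, then -1.37, -1.15 and -0.23. On knockdown arrays 1 and 2 Anxa8 was thus low against both genes, and on array 3 it was within the control range against both.

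On the median array the SD between spots of the ratio was 0.0905 for Anxa8, 0.16 for Actb and 0.147 for Cav2, where the median named probe had 0.116. The pooled SDs between arrays were 0.21, 0.20 and 0.28. For the Actb ratio single spots varied nearly as much as the arrays, and on control array 2 their SD was 0.221. Each array value is a mean over several spots, so the spots enter it with a smaller spread than this. For Cy3 alone the spot SDs of Anxa8, Actb and Cav2 were 0.0325, 0.037 and 0.0535, against 0.68, 0.36 and 0.25 between arrays. The Sup RNA of Anxa8 ran from 3.92 to 3.94 over the spots of knockdown array 1, from 4.18 to 4.30 on array 2 and from 5.43 to 5.56 on array 3, so no spot joins the low arrays to the high one. Cy5 spots of Cav2 on control array 2 were the widest, from -0.37 to 0.60, wider than the range of its IP means over the arrays, from 0.11 to 0.81.

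Outlier marks took out more spots of these genes on control arrays than on knockdown arrays. They fell on 10 of 30 control spots and 5 of 30 knockdown spots of Actb, on 10 and 4 of Anxa8, and on 3 and 1 of Cav2. With the marked spots kept, the differences in total RNA were -0.47 for Actb, -1.05 for Anxa8 and -0.15 for Cav2.

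**Figure D4:**
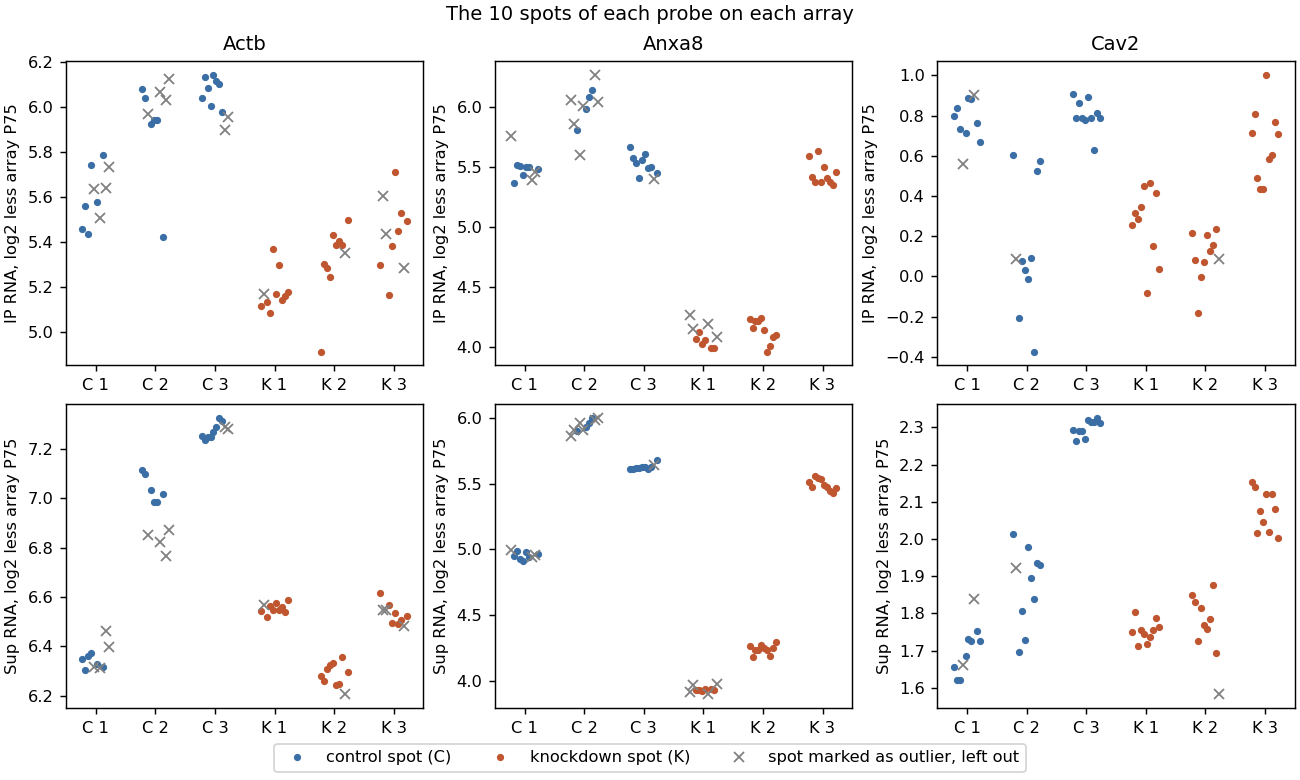
IP RNA (upper row) and Sup RNA (lower row) of every spot of the Actb, Anxa8 and Cav2 probes in log2 less the array's 75th percentile, by control (C) and knockdown (K) array; crosses are spots marked as outliers and left out. Sup spots of Anxa8 that were kept reach 3.94 on K 1 and 4.30 on K 2 and start at 5.43 on K 3, with no spot between.

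Likeness to other named genes was measured as the root mean square difference of profiles over the 6 arrays, each less its own mean, among 26 candidates. In total RNA, Actb lay nearest to H2-M2 (0.23), Gamt, an enzyme of creatine synthesis (0.24), and the cell cycle factor E2f1 (0.24). Cav2 lay nearest to the LIM homeobox factor Lhx1 (0.11), to Hyal3 (0.13) and to Lhfp (0.14). Anxa8 had no near profile, with the peroxide-removing enzyme Prdx2 at 0.49, H2-M2 at 0.50 and Actb at 0.55, where its median over the candidates was 0.70.

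In the ratio, Anxa8 and Cav2 were each other's nearest gene at 0.13. Tm9sf1 and Gamt followed for Anxa8, both at 0.18, and Lhfp (0.19) and the mitochondrial thiolase Acaa2 (0.21) for Cav2. Actb lay nearest to Tm9sf1 (0.11), Lhfp (0.12) and the olfactory receptor Olfr1307 (0.14). The profiles share their arrays and the centring of each array, so these distances describe these 6 arrays only.

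Anxa8 was the gene whose difference kept its sign in every measure over the settings tried. Over 19 settings its difference in total RNA ran from -1.54 to -0.68 and was below 0 in 19. That of Actb ran from -0.70 to -0.018, also below 0 in 19, and that of Cav2 from -0.26 to 0.24, below 0 in 15.

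**Figure D5:**
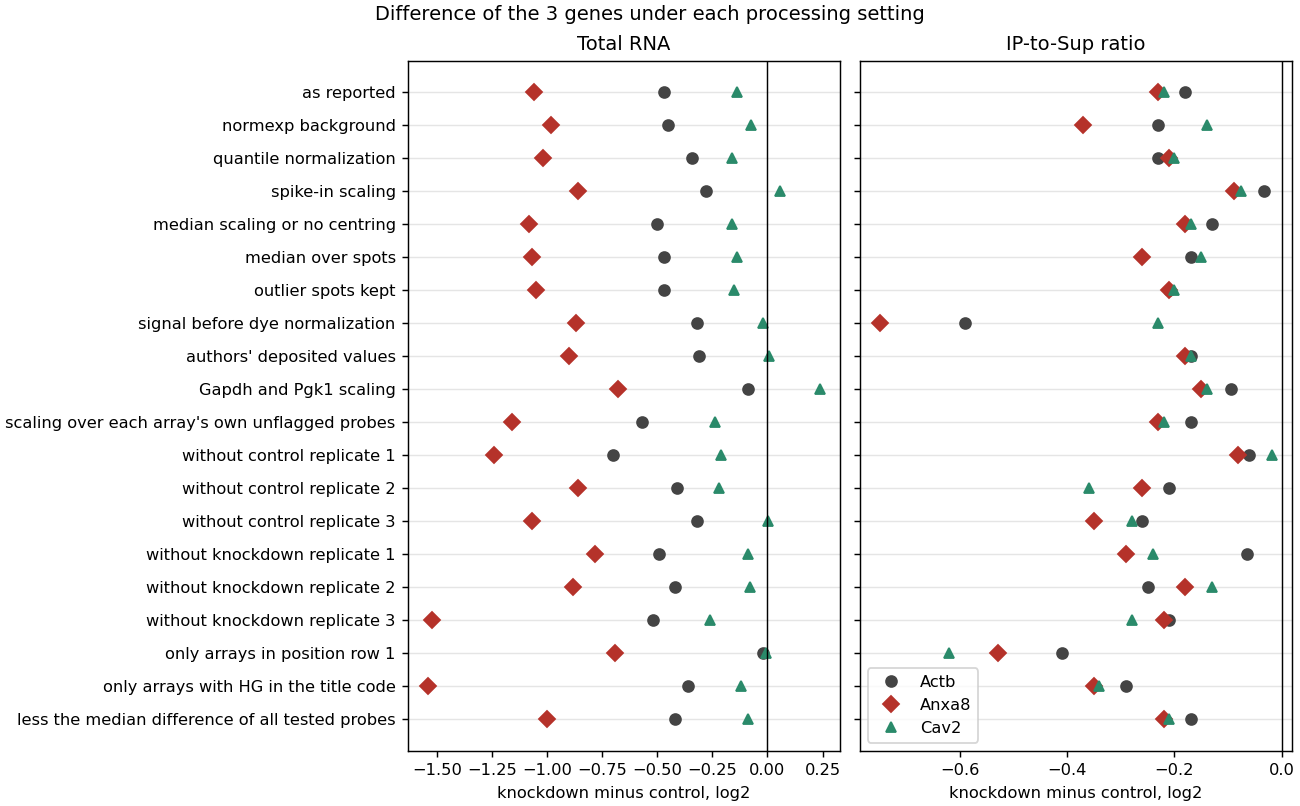
Knockdown minus control (log2) in total RNA (left) and in the IP-to-Sup ratio (right) for Actb, Anxa8 and Cav2, as reported and under each other processing setting or choice of arrays. Anxa8 stays between -1.54 and -0.68 in total RNA, Actb comes to -0.018 with only the arrays in position row 1, and Cav2 lies on both sides of 0.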

How the data were processed

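Per the file headers, the authors obtained the spot intensity with Agilent Feature Extraction 11.0.1.1, which subtracted the background and normalized the dyes on each array. Per the labels, Cy5 is IP and Cy3 is Sup. The log2 values that the authors deposited differ from these by unexplained array constants and served as an alternative.

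Outlier spots were dropped and the remaining spots averaged for each probe. The ratio was centred on the median of tested probes, and IP, Sup and total RNA were scaled to the 75th percentile, both over probes with no outlier mark on any array (57809 for the percentile). Each array's own unmarked probes would shift the Cy5 percentile by 0.40 between groups in place of 0.29. Tests took probes that rose well above background on 3 or more arrays. This was asked of both channels for the ratio, of either channel for total RNA and of the one channel for IP and Sup RNA. R 4.3.3, limma 3.58.1 and version 1.17.8 of data.table were used, with Benjamini-Hochberg adjustment at 0.05. The fit of the ratio was run on data simulated from its own variances with independent arrays, which checks the code and not the design. Array number limits the precision.

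The genes, the lists and the tests were chosen with earlier results of these data known. The genes named are the 3 genes, any list member with a named probe and, for each gene, the 3 nearest of the named probes measured above background throughout. Uhrf1bp1l, as the highest ratio, and the Gapdh and Pgk1 probes were added after their values were seen. Normexp used median signals and an offset of 50.

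Equal replicate numbers were checked for pairing by correlating deviations from group means. Correlations were 0.18 to 0.345 in total RNA, 0.321 to 0.529 in Sup RNA, 0.0704 to 0.307 in IP RNA and -0.00345 to 0.0929 in the ratio. Between unequal numbers they reached 0.191, 0.216, 0.234 and 0.15 in the same order. Only in Sup RNA did every equal number stand above all unequal ones.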

Additional observations from a re-analysis of the deposited data

How the results depend on the processing

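Alternatives covered background, scaling, spots, arrays and the filter; those by position row, title code, scan, Gapdh and Pgk1, own-array percentile and median difference were chosen after seeing the data. Leaving out 1 array gave, in total RNA, -0.70 to -0.32 for Actb, -1.52 to -0.78 for Anxa8 and -0.26 to 0.0021 for Cav2. In IP RNA it gave -0.67 to -0.44, -1.58 to -0.88 and -0.45 to -0.12, in Sup RNA -0.70 to -0.23, -1.42 to -0.64 and -0.21 to 0.092, and in the ratio -0.26 to -0.061, -0.35 to -0.082 and -0.36 to -0.018. The positive Cav2 values came without control array 3. The average ratio ran from -1.24 to -1.12 for Actb, -0.095 to 0.041 for Anxa8 and -1.64 to -1.47 for Cav2; Anxa8 was 0.041 without control array 3, 0.0073 without knockdown array 2 and 0.033 with normexp.

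On Gapdh and Pgk1, Actb differed by -0.15 in IP, -0.057 in Sup and -0.09 in total RNA, and Cav2 by 0.15, 0.29 and 0.24. In position row 1, Actb differed by -0.41 in the ratio, -0.28 in IP, 0.12 in Sup and -0.018 in total RNA, Anxa8 by -0.53 in the ratio, and Cav2 by -0.62 in the ratio and 0.18 in Sup RNA. Before dye normalization the ratio differed by -0.59 for Actb and -0.75 for Anxa8, and Actb IP RNA by -0.75. On spike-in probes, of which 2 or 3 of 22 were well above background in Cy5 on each array, Actb IP RNA differed by -0.32 and Cav2 total RNA by 0.055. The authors' deposited values gave 0.054 in Sup and 0.006 in total RNA for Cav2. The cause of these changes was not tested.

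With the replicate block, limma's adjusted calls stayed at 0 in all 4 measures, and unadjusted p under 0.05 gave 1635 probes in IP, 3352 in Sup and 3220 in total RNA. The block changed no other call. Leaving out 1 array gave 0 to 1 calls in IP and 0 to 1 in total RNA, with 1 in each without control array 2. The scan block gave 1 in IP and 1 in total RNA. Position row 1 gave 3 in IP, 5 in Sup and 8 in total RNA, with a lone control assumed to vary like the knockdowns.

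The number of arrays limits every comparison, and of the 3 genes Cav2 had the lowest Cy5 signals.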
